A study of Mus musculus with 6 samples.

Results

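In all, 9 genes of pancreatic ducts and simple epithelia were followed in islets of Pax8 +/- and Wt mice: the keratin genes Krt7, Krt8, Krt18 and Krt19, the duct transcription factor Sox9, the chloride channel gene Cftr, the osteopontin gene Spp1, and Epcam and Muc1, which encode proteins of the epithelial cell surface. They were chosen by name and matched through the gene symbols of the array annotation, which found 8 of the 9, each with 1 probe set, among 22206 gene probe sets. Spp1 had no probe set under its symbol and is not analysed here. The 3 Pax8 +/- samples came from mice with 1 functional copy of Pax8, a transcription factor that the thyroid needs to make its hormones, and the 3 Wt samples, labelled Control, from mice with both copies. All were male C57BL/6 mice aged 9 months. The paper states that mice of this age were fasted before they were killed. In Pax8 +/- mice, 1 copy of Pax8 is lost in the whole animal, so that islets were not targeted by themselves. Hand-picked islets from collagenase digestion gave the RNA, which was read on Clariom S arrays as log2 levels. The labels do not say whether an array holds islets of 1 mouse or of several, and p-values therefore measure the spread between these samples, which may be technical in part.

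Keratins are the intermediate filaments of epithelial cells and always assemble as pairs of a type II and a type I protein. Krt8 (type II) and Krt18 (type I) form the basic pair of simple epithelia and are made in ducts, in the acinar cells that secrete digestive enzymes, and in islet cells. Krt7 (type II) and Krt19 (type I) are better known as duct keratins, and Krt19 labels ducts in sections of the pancreas. Ducts lie next to islets and carry bicarbonate-rich fluid whose secretion depends on Cftr. In such bulk RNA, fewer cells of a type and less RNA per cell cannot be told apart.

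The arrays differed among themselves in ways the genotype labels do not explain. Array medians over gene probe sets lay between 5.25 and 5.33 on the log2 scale. Across gene probe sets, Pax8 +/- replicate 1 was most like Wt replicate 1 (r = 0.984) and Wt replicate 3 most like Pax8 +/- replicate 2 (r = 0.983), a description in which genes are not replicates. Values are therefore given for every array, and differences are given with and without the arrays that decide them. Background was set per array at the level below which 95% of its 5222 negative controls lay, which was 7.60 to 7.97 (the background percentile).

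None of the 8 genes passed the thresholds of the study (2.5-fold or more in either direction with an unadjusted p of at most 0.05), where 1% of all gene probe sets did with limma, 0.351% on the lower and 0.648% on the higher side. Of the 8, 7 had a lower mean in Pax8 +/- islets and Krt7 had a higher one, while 50.8% of all gene probe sets had a lower mean. The median log2 difference, Pax8 +/- minus Wt, was -0.71 over the 8 genes and -0.01 over all gene probe sets. At an unadjusted p of at most 0.05 there was 1 gene, Cftr, which lay below background on every array, while 5.91% of all gene probe sets had such a p. After Benjamini-Hochberg adjustment over all probe sets, the 8 genes had adjusted p-values of 0.745 to 0.929 from limma, and no probe set on the array was under 0.05.

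Krt8 and Krt18 had the largest differences in level among the 8 genes. Krt8 stood at 17.02, 14.35 and 14.25 on Pax8 +/- replicates 1, 2 and 3 and at 16.24, 17.12 and 16.25 on Wt replicates 1, 2 and 3. Pax8 +/- replicates 2 and 3 were therefore far below every Wt array, and Pax8 +/- replicate 1 was above the other 2 and within the Wt range. The means were 15.21 ± 1.57 in Pax8 +/- and 16.54 ± 0.50 in Wt islets (SD, n = 3 each), a 2.51-fold lower level. The log2 difference was -1.33 (standard error 0.70, 95% interval -2.93 to 0.27), with an unadjusted p = 0.092 and an adjusted p = 0.745 in limma. An exact permutation test of Krt8 over the 6 arrays (2-sided) gave p = 0.3, where 3 arrays against 3 cannot go below 0.1.

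Krt18, the filament partner of Krt8, had the same 2 highest and the same 2 lowest arrays. Its levels were 18.35, 15.54 and 15.51 on the Pax8 +/- arrays and 17.78, 18.58 and 17.26 on the Wt arrays. Again Pax8 +/- replicates 2 and 3 lay nearly together and below all other arrays. Krt18 averaged 16.46 ± 1.63 in Pax8 +/- and 17.88 ± 0.67 in Wt islets (SD, n = 3 each), 2.66-fold lower. The log2 difference of -1.41 (standard error 0.74, 95% interval -3.11 to 0.28) had an unadjusted p = 0.091 and an adjusted p = 0.745 in limma. For scale, the brightest probe set of an array stood at 19.88 to 19.93.

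**Figure D1:**
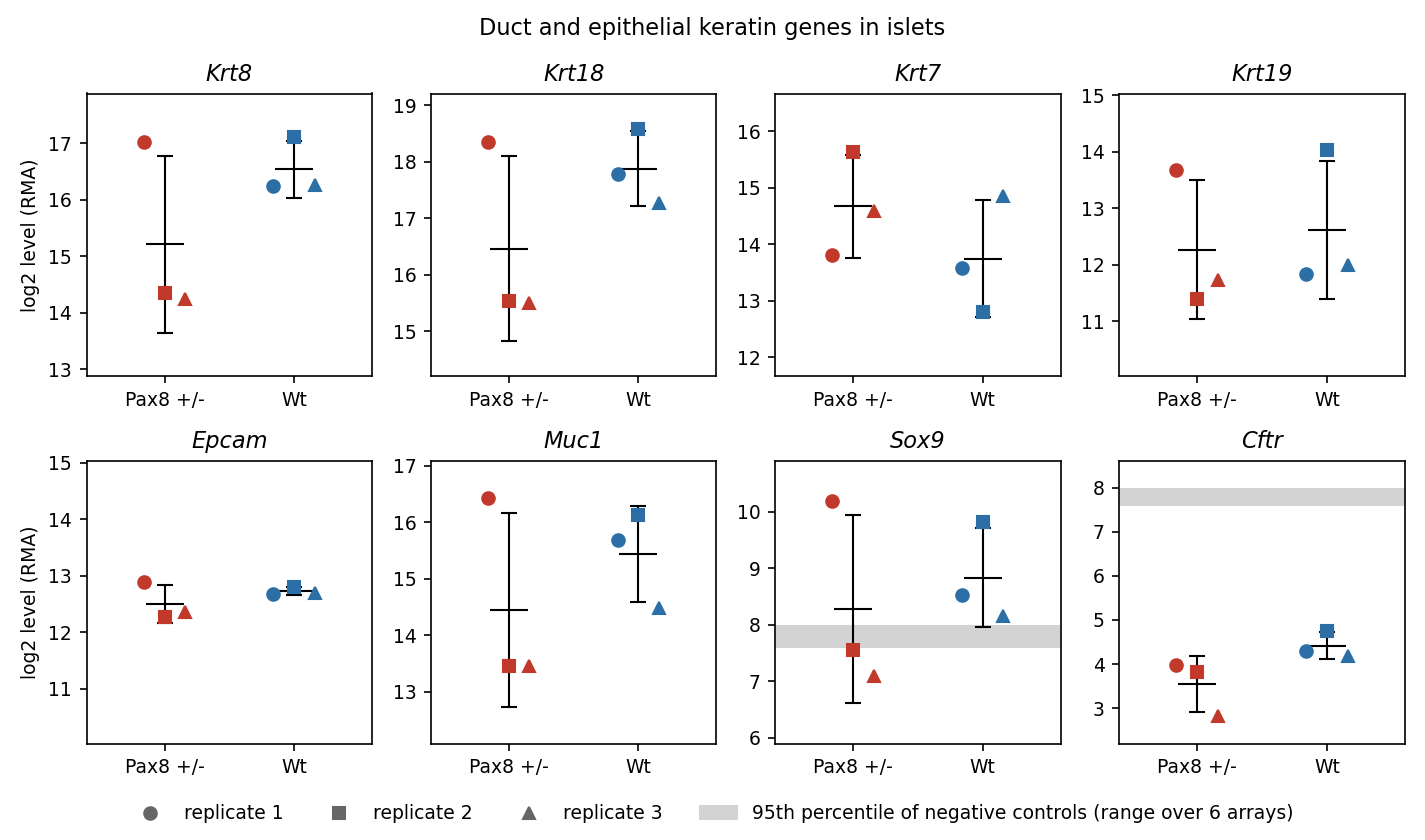
Log2 level (RMA) of each gene, 1 point per array, in Pax8 +/- (left) and Wt islets (right) of every panel; the marker shape gives the replicate number, black bars give the mean and SD (n = 3), and the grey band spans the background percentiles of the 6 arrays. For Krt8, Krt18, Muc1 and Sox9, Pax8 +/- replicate 1 stands above Pax8 +/- replicates 2 and 3 and among or above the Wt arrays, and Cftr lies below the band on all 6 arrays.

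Krt7 was the only one of the 8 genes with a higher mean in Pax8 +/- islets. It stood at 13.81, 15.63 and 14.59 on the Pax8 +/- arrays and at 13.58, 12.80 and 14.86 on the Wt arrays. The groups overlapped, since Wt replicate 3 was above Pax8 +/- replicates 1 and 3. The log2 difference was 0.93 (standard error 0.60, 95% interval -0.44 to 2.30), with an adjusted p = 0.761 from limma. Krt7 was lowest on Wt replicate 2, where Krt8 and Krt18 were highest. The log2 level of Krt7 minus that of Krt8 was -3.21, 1.27 and 0.34 on the Pax8 +/- arrays and -2.67, -4.32 and -1.39 on the Wt arrays, which shows that these 2 type II keratin probe sets did not vary together. This pair was singled out after its values had been seen, and the values are given with no test.

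Because Krt8 and Krt18 varied together and Krt7 did not, the stretches before their start sites are shown. All 3 genes lie on chromosome 15. Krt8 and Krt18 are turned away from each other, their start sites are 23.9 kb apart, and the RefSeq gene table lists 2 genes between them, of which 0 are protein coding. Between Krt7 and Krt8 it lists 31 genes, 23 of them protein coding. Each line gives the 250 bases before the start site from RefSeq (GRCm38.p6), 5′ to 3′ along the gene, at chr15:101412153-101412402 on the plus strand for Krt7, chr15:102004343-102004592 on the minus strand for Krt8 and chr15:102027966-102028215 on the plus strand for Krt18. Capitals mark the GC box (GGGCGG or CCGCCC, bound by Sp and KLF factors) and the E-box (CANNTG).
Krt7: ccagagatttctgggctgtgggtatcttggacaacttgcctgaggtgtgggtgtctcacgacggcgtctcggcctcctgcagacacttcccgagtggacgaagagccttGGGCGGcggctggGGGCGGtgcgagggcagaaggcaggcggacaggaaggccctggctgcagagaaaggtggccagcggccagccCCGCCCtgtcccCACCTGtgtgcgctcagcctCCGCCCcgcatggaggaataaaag
Krt8: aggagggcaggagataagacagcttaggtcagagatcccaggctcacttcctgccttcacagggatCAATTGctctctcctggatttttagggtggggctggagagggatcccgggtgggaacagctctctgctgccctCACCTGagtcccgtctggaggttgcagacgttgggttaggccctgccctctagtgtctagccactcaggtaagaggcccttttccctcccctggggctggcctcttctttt
Krt18: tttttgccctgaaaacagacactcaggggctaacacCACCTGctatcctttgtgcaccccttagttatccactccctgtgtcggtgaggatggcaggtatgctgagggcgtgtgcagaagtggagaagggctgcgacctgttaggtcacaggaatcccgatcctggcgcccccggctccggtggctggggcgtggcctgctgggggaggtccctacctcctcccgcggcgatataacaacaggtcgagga

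The Krt7 stretch held 4 GC boxes and the Krt8 and Krt18 stretches held 0, where 32.7% of all 32851 promoter stretches of this length hold at least 1. E-boxes stood in all 3, with 1 in Krt7, 2 in Krt8 and 1 in Krt18, and are found in 66.2% of all stretches. GC content was 66.0% for Krt7, 58.0% for Krt8 and 60.4% for Krt18, with a median of 52.4% over all stretches. The TATA box (TATAAA), the CCAAT box (CCAAT), the AP-1 site (TGANTCA) and the ETS site (CCGGAAG), searched on both strands as the others were, had no match in the 3 stretches, and the Sox core (ACAANG) had 1 match, in Krt18. Muc1, Epcam and Cftr, which also had lower means in Pax8 +/- islets, held 2, 1 and 6 GC boxes in their stretches. Krt19 and Sox9 had no stretch to search. GC boxes therefore did not divide the genes by the direction of their means. These letters describe the windows alone, and no binding was measured.

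Krt19, a type I keratin and the usual marker of pancreatic ducts, varied more within each genotype than the genotype means differed. Its SD was 1.23 in Pax8 +/- and 1.22 in Wt islets (n = 3 each). Its levels were 13.68, 11.38 and 11.73 on the Pax8 +/- arrays and 11.83, 14.02 and 12.00 on the Wt arrays. One array of each genotype, Pax8 +/- replicate 1 and Wt replicate 2, was high, and the other 4 lay between 11.38 and 12.00. The log2 difference was -0.35 (standard error 0.73, 95% interval -2.03 to 1.32; adjusted p = 0.929, limma). Its sign turned to 0.35 without Wt replicate 2 and to 0.087 without Pax8 +/- replicate 2, so that no direction can be given for Krt19.

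Among the 45 other keratin genes on the array, 43 lay below background on all 6 arrays. The exceptions, Krt20 and Krt23, were each above it on 1 array. Krt20, a keratin of the gut lining, was above on Pax8 +/- replicate 1 (9.05) and Krt23 on Wt replicate 2 (8.70), the same 2 arrays that were high for Krt19. None of the 45 passed the thresholds of the study, and 1, Krt14, a keratin of basal cells, had an unadjusted p of at most 0.05 with all its values below background. The detected keratins of these islet samples were thus Krt7, Krt8, Krt18 and Krt19, each at least 3.61 log2 units above background on every array.

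**Figure D2:**
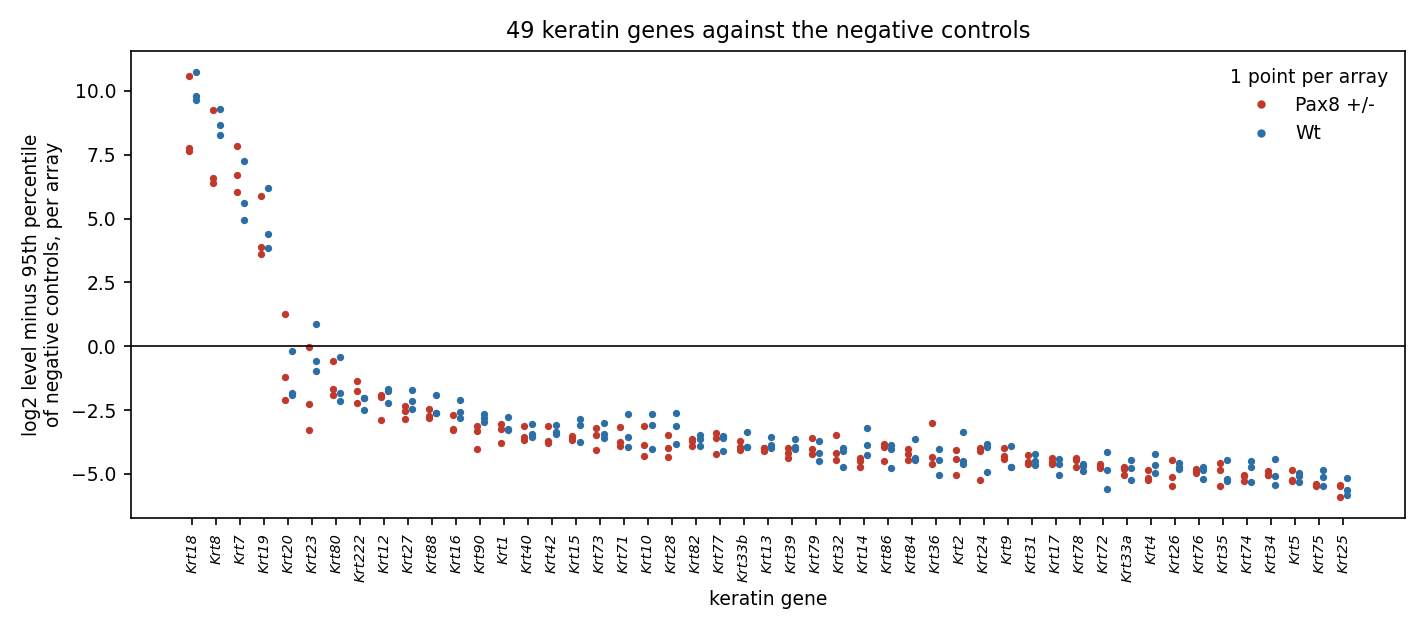
Log2 level minus the background percentile of the same array, for the 49 keratin genes measured, with 3 points per gene for Pax8 +/- (red, left) and 3 for Wt islets (blue, right). Krt18, Krt8, Krt7 and Krt19 are above the line at 0 on all arrays, Krt20 and Krt23 cross it on 1 array each, and the other 43 genes stay below it.

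Muc1, a large glycoprotein of the apical surface of epithelial cells, followed Krt8 and Krt18. It was at 16.43, 13.46 and 13.46 on the Pax8 +/- arrays and at 15.68, 16.13 and 14.49 on the Wt arrays. Pax8 +/- replicate 1 was the highest of all 6 arrays, while Pax8 +/- replicates 2 and 3 were the lowest. The group means were 14.45 ± 1.71 in Pax8 +/- and 15.43 ± 0.85 in Wt islets (SD, n = 3 each), and the log2 difference of -0.98 (standard error 0.80, 95% interval -2.81 to 0.84) had an adjusted p = 0.800 from limma.

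Epcam, an adhesion molecule present on most simple epithelia including islet cells, had the narrowest range of the 8 genes. It was at 12.89, 12.28 and 12.36 on the Pax8 +/- arrays and at 12.69, 12.81 and 12.70 on the Wt arrays. Pax8 +/- replicates 2 and 3 were again the 2 lowest arrays and Pax8 +/- replicate 1 the highest, over a range of 0.61. The log2 difference was -0.22 (standard error 0.26, 95% interval -0.82 to 0.38; adjusted p = 0.867, limma).

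Sox9, the transcription factor that duct cells keep from the progenitors of the pancreas, lay close to background. Its levels of 10.18, 7.56 and 7.09 on the Pax8 +/- arrays and 8.53, 9.82 and 8.16 on the Wt arrays exceeded the background percentile on Pax8 +/- replicate 1 and all Wt arrays, but not on Pax8 +/- replicates 2 and 3. The size of its log2 difference, -0.56 (standard error 0.79, 95% interval -2.36 to 1.24; adjusted p = 0.892, limma), rests in part on values below background. Without Pax8 +/- replicate 3 it was 0.036.

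Cftr, the defining chloride channel of duct cells, was not detectable on these arrays. Its values were 3.99, 3.83 and 2.84 on the Pax8 +/- arrays and 4.31, 4.76 and 4.19 on the Wt arrays, and between 16.2% and 60.1% of the negative control probe sets of the same array lay below it. The log2 difference of -0.87 (standard error 0.36) had an unadjusted p = 0.039 and an adjusted p = 0.745 in limma. All 3 Pax8 +/- values were under all Wt values, which held for 1 of the 8 genes and for 5.14% of all gene probe sets, with 4.52% not overlapping on the higher side and 9.66% in either direction. Cftr could not go below p = 0.1 in the exact permutation test with 3 arrays against 3, and had that value. As no array measured Cftr above background, this difference lies among values that the negative controls also take. Set against the background of each array, Krt7, Krt8, Krt18, Krt19, Epcam and Muc1 were above it on all 6 arrays, the duct regulator Sox9 on 4 and the duct channel Cftr on 0.

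The same arrays stood out in nearly every gene. Pax8 +/- replicates 2 and 3 were the 2 lowest of the 6 arrays for 7 of the 8 genes (all but Krt7), an order seen in 13.3% of all gene probe sets. Pax8 +/- replicate 1 and Wt replicate 2 were the 2 highest for 6 of the 8 (all but Krt7 and Cftr), an order seen in 10.4%. These orders were noticed in the values and carry no test. Relative to the Wt mean, Pax8 +/- replicates 2 and 3 stood at -2.18 and -2.29 for Krt8, -2.34 and -2.37 for Krt18, and -1.97 and -1.97 for Muc1, and at 1.88 and 0.84 for Krt7. Pax8 +/- replicate 1 stood at 0.48, 0.47, 0.99 and 0.06 for the same genes.

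**Figure D3:**
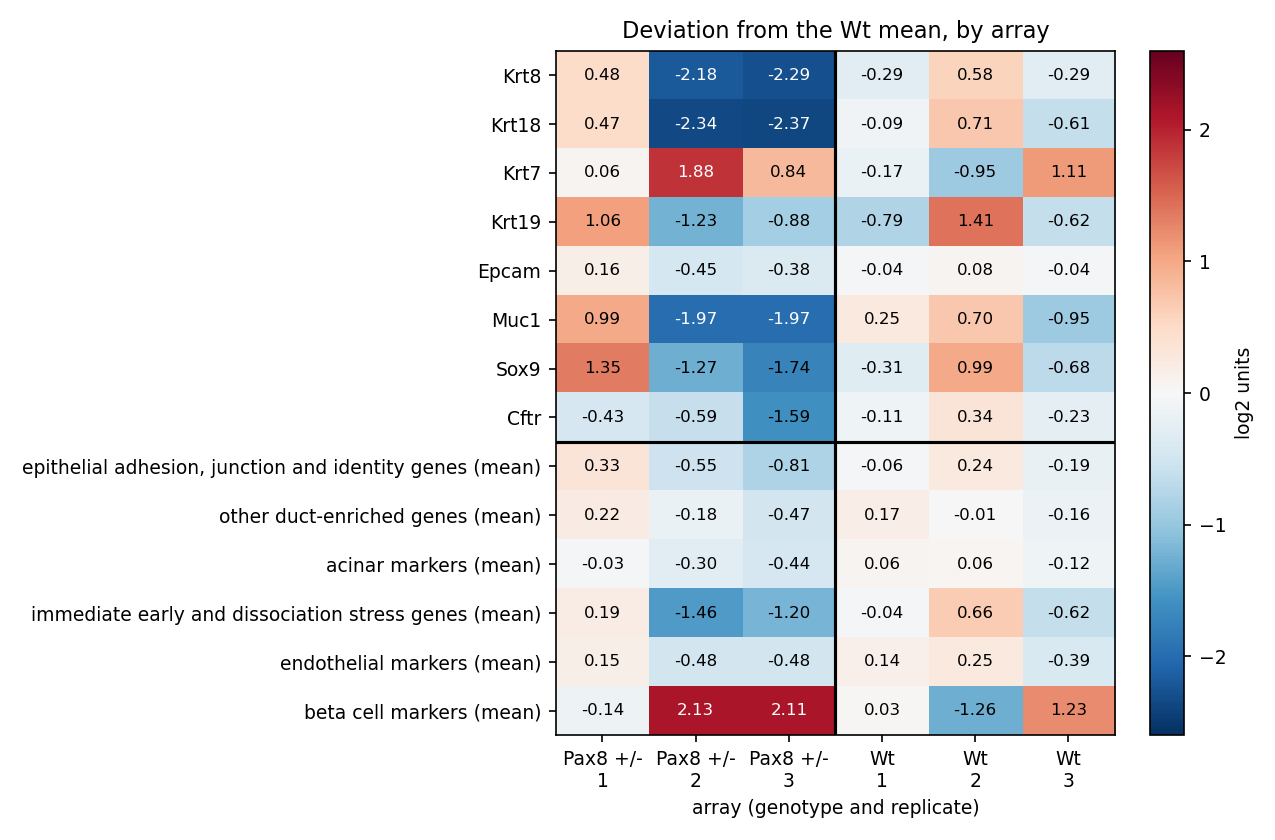
Deviation of each array from the Wt mean in log2 units (number and colour), for the 8 genes (above the line) and for the mean level of 6 gene lists (below it), with the Pax8 +/- arrays left of the Wt arrays. Pax8 +/- replicates 2 and 3 are low for every gene but Krt7 and high for the beta cell list (2.13 and 2.11), while Pax8 +/- replicate 1 lies within the Wt range for Krt8, Krt18, Krt7 and Krt19, above it for Muc1, Sox9 and Epcam, and below it for Cftr.

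The result for single genes turned on Pax8 +/- replicate 1. Without this array, 5 of the 8 genes passed the thresholds of the study, namely Krt8 (-2.23), Krt18 (-2.36), Muc1 (-1.97) and Sox9 (-1.51) on the lower side and Krt7 (1.36) on the higher side. In that fit 2.69% of all gene probe sets were lower and 3.33% higher at the same thresholds. Sox9 was below background on Pax8 +/- replicates 2 and 3, the Pax8 +/- arrays left in the fit. The size of its difference there rests in part on values below background. The adjusted p-values from limma were 0.060 for Krt8, 0.068 for Krt18, 0.097 for Muc1, 0.182 for Sox9 and 0.315 for Krt7, while 29 of all gene probe sets were under 0.05. Without Wt replicate 3, Krt7 alone passed (1.49), where 2.49% of all gene probe sets were higher. Leaving out any of the other 4 arrays left 0 of the 8 genes past the thresholds. Array weights were also used, set by how far the values of each array lay from the means of its group. Pax8 +/- replicate 1 had the lowest weight (0.58). With these weights Krt8 (-1.63) and Krt18 (-1.79) passed, where 1.38% of all gene probe sets were lower and 2.22% higher. As this fit lowers the part of the array left out above, it is no separate support for these calls.

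**Figure D4:**
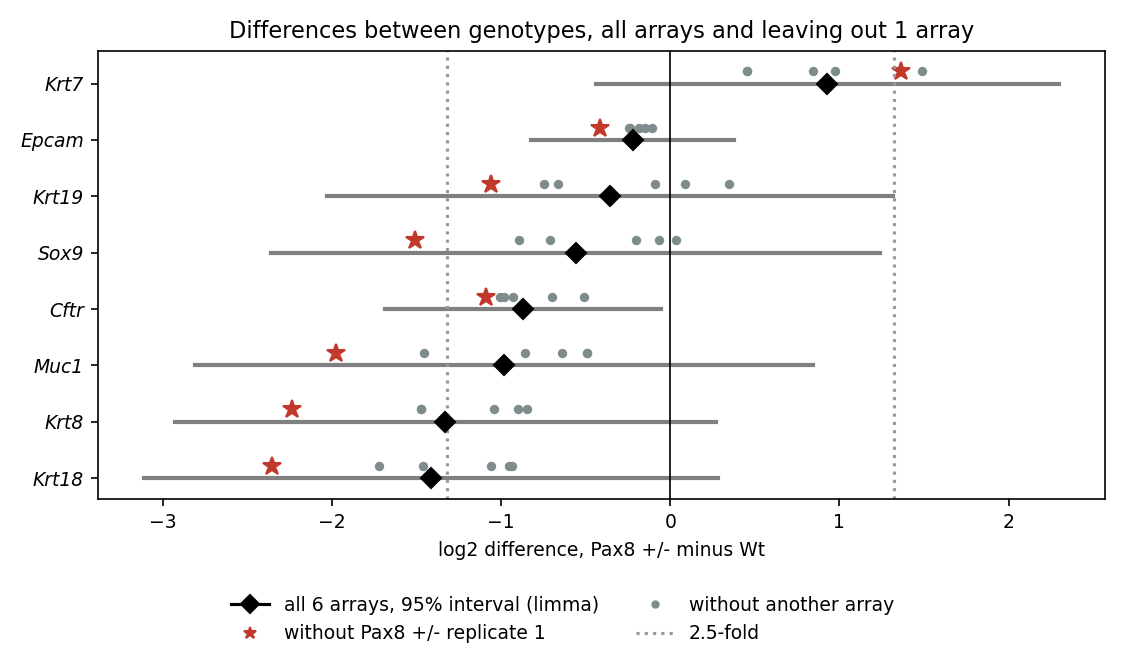
Log2 difference, Pax8 +/- minus Wt, of each gene with all 6 arrays (diamond, with the 95% interval from limma) and with 1 array left out (points, with the star for Pax8 +/- replicate 1); dotted lines mark a 2.5-fold difference. Without Pax8 +/- replicate 1 the values of Krt8, Krt18, Muc1 and Sox9 lie beyond the lower line and that of Krt7 beyond the upper one, and for Krt19 and Sox9 the points fall on both sides of 0.

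Other genes of epithelial cells were taken from a list. Of 19 measured of 20 listed epithelial adhesion, junction and identity genes, 15 had a lower mean in Pax8 +/- islets, with a median log2 difference of -0.36, and 1 passed the thresholds of the study. This was Ocln, which encodes occludin of tight junctions, at 11.13, 9.42 and 9.44 on the Pax8 +/- arrays and 11.01, 12.25 and 10.75 on the Wt arrays, a log2 difference of -1.34 (standard error 0.55; adjusted p = 0.745, limma). Pax8 +/- replicate 1 again lay within the Wt range. The mean of the list stood at 0.33, -0.55 and -0.81 on the Pax8 +/- arrays and at -0.06, 0.24 and -0.19 on the Wt arrays relative to the Wt mean, so that Pax8 +/- replicates 2 and 3 were lowest here too. The proteins that tie keratins to cell junctions, 8 measured of 10 listed, had 0 genes past the thresholds and a median of -0.08. Jup, or plakoglobin, was at -0.49, Dsp, the desmosomal anchor of keratin filaments, at 0.09 and Dst, which ties filaments to the cell base, at 0.12.

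Further duct genes gave no common direction in their group means. Of 11 measured of 13 listed duct transcription factors and Notch pathway genes, 1 was above background on all arrays and 7 on none. In this list 5 genes had a lower and 6 a higher mean in Pax8 +/- islets, with a median log2 difference of 0.19. Glis3, a zinc finger factor of ducts and beta cells, was higher at the thresholds of the study, at 9.05, 10.98 and 10.63 on the Pax8 +/- arrays and 8.74, 7.76 and 9.69 on the Wt arrays (log2 difference 1.48, standard error 0.61; adjusted p = 0.745, limma), with Wt replicate 2 below background. Genes of ductal fluid and bicarbonate secretion, 11 measured of 13 listed, had 0 past the thresholds and 9 above background on no array. Of these 11, 6 had a lower and 5 a higher mean, with a median log2 difference of -0.15. The chloride channel gene Ano1, with a log2 difference of -1.01, had the highest level on Pax8 +/- replicate 1 (13.31) and the lowest on Pax8 +/- replicate 2 (10.21). Slc12a2, the chloride importer of secretory cells, was at 8.78, 7.98 and 7.05 on the Pax8 +/- arrays and 8.77, 9.34 and 8.56 on the Wt arrays (log2 difference -0.95), below background on Pax8 +/- replicate 3. Among 14 other duct-enriched genes, 8 had a lower and 6 a higher mean and 0 passed. They include the trefoil peptide gene Tff2 at -1.30, the surface protein gene Prom1 at -0.71 and the annexin gene Anxa3 at 0.62 with 2 arrays above background. The mean levels of the fluid and other duct-enriched lists were highest on Pax8 +/- replicate 1 (5.71 and 10.17). They were lowest on Pax8 +/- replicates 2 (4.85 and 9.78) and 3 (4.93 and 9.48). The factor and Notch list was lowest on Wt replicate 1 (5.82).

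Relatives and partners of the group gave 1 call. None of 7 measured mucin genes other than Muc1 passed the thresholds or was above background on all arrays, and Muc13, a mucin of gut and duct surfaces, was at -1.30 with 2 arrays above background. The 7 genes for receptors of osteopontin, the product of Spp1, had a median of 0.04 with 0 past the thresholds. Of these, Cd44 was at 0.63, and the integrin genes Itgb5 and Itgb1 were at 0.36 and -0.55. Among 12 other intermediate filament genes 1 passed, Nes, a filament gene of vessels and stellate cells in the pancreas, at 10.10, 7.89 and 8.22 on the Pax8 +/- arrays and 10.29, 10.64 and 9.41 on the Wt arrays (-1.37, standard error 0.58; adjusted p = 0.745, limma).

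Markers of other pancreatic cells also differed between these arrays. Of the beta cell markers, 10 of 15 measured (18 listed) were above background on all arrays, and all 15 had a higher mean in Pax8 +/- islets, with a median log2 difference of 1.13 and 1 gene, Nkx2-2, past the thresholds at 1.87 with Wt replicate 2 below background. Their mean level was 11.77 to 14.04 on the Pax8 +/- arrays and 10.65 to 13.14 on the Wt arrays. Its order, with Wt replicate 2 lowest and Pax8 +/- replicates 2 and 3 highest, was the reverse of that of Krt8 and Krt18 at both ends. Krt7 was also lowest on Wt replicate 2 (12.80). Like this mean, Krt7 was higher on Pax8 +/- replicates 2 (15.63) and 3 (14.59) and Wt replicate 3 (14.86) than on the other arrays. Of the 15 beta cell markers, 2 stood within 0.1 of the highest value on every array. The count, median and mean level of the beta cell list include them. For the acinar markers, 18 measured of 20 listed, 14 were above background on all arrays and 8 stood within 0.1 of the highest value on every array, too close to the ceiling to show a difference. Of the 18, 9 had a lower and 9 a higher mean in Pax8 +/- islets, and the median of the list was -0.01. The mean level of the list was 16.41 to 16.82 on the Pax8 +/- arrays and 16.73 to 16.92 on the Wt arrays, lowest on Pax8 +/- replicates 2 and 3. Of the list, 0 genes passed the thresholds, and the counts, median and mean level include the genes near the ceiling. Gp2, a zymogen granule protein outside those 8 genes, was at 19.10, 17.74 and 17.83 on the Pax8 +/- arrays and 19.21, 19.43 and 18.73 on the Wt arrays (log2 difference -0.90). The highest value of a Wt array was 19.88 to 19.93, so that Gp2 lay close to it there and the size of its difference is uncertain. Nr5a2, an acinar transcription factor, was at -0.94 with 3 arrays above background, and the trypsin inhibitor gene Spink1 was at -1.39. These 3 were named for the smallest p among the listed genes above background on at least 1 array. They do not stand for the list, in which 9 of 18 genes had a higher mean. All 3 had their 2 lowest levels on Pax8 +/- replicates 2 and 3, where Krt8 and Krt18 were lowest, an order seen in 13.3% of all gene probe sets. On these 2 arrays Nr5a2 was below background. Immediate early and dissociation stress genes, 14 measured of 14 listed, had a median log2 difference of -0.87 and were also lowest on these 2 arrays, at a mean level of 8.08 to 9.74 on the Pax8 +/- and 8.93 to 10.20 on the Wt arrays, and 2 of them, Fosb (-1.87) and Hspa1b (-2.42), passed the thresholds on the lower side, but both were below background on Pax8 +/- replicates 2 and 3, so that these sizes rest in part on values below background. The mean level of 10 endothelial markers was 8.49 to 9.12 on the Pax8 +/- arrays and 8.58 to 9.22 on the Wt arrays, with a median log2 difference of -0.36 and 0 past the thresholds. Single endothelial genes went opposite ways, with Cdh5, the junction cadherin of vessels, at -1.72, and the surface proteins Emcn and Eng at 1.06 and 0.56. No marker of the mesenchymal list (9 measured, mean level 4.45 to 5.30 on the Pax8 +/- and 4.70 to 5.42 on the Wt arrays) or of the macrophage list (9 measured, 5.24 to 5.57 on the Pax8 +/- and 5.03 to 5.52 on the Wt arrays) was above background on all arrays. In the mesenchymal list the median was -0.20, with Rgs5, a pericyte gene, at -0.65 (4 arrays above background) and Dcn, a matrix proteoglycan, at -0.95 (1 array). In the macrophage list the median was -0.09, and 1 macrophage gene, the complement gene C1qa, passed the thresholds at 1.76 with 2 arrays above background. The part of these cell types and of the stress genes in the levels of the 8 genes was not tested.

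The genes with the pattern most like the mean level of the 8 over the 6 arrays were Mex3c (r = 0.999), Rrbp1 (0.997), Itga3 (0.994), Alg9 (0.993), Tpm4 (0.993), Ankfy1 (0.993), Ppp4r1 (0.993) and Spink1 (0.993), out of 4321 named probe sets above background on all arrays. With only 6 arrays, 9.44% of these probe sets had an r over 0.9, so that likeness is common here, and these correlations describe a ranking with no test. Itga3, an integrin of epithelial cells, was at 11.24, 10.02 and 9.66 on the Pax8 +/- arrays and 10.62, 11.11 and 10.44 on the Wt arrays. Spink1 was at 18.21, 15.36 and 14.98 on the Pax8 +/- arrays and 17.12, 18.67 and 16.92 on the Wt arrays. Both had the 2 highest levels on Pax8 +/- replicate 1 and Wt replicate 2 and the 2 lowest on Pax8 +/- replicates 2 and 3. The mean level of the 8 genes has this same order, and both genes were picked for their likeness to it. Their shared order therefore follows from the pick and is no separate observation.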

How the data were processed

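Islet RNA of 3 Pax8 +/- and 3 Wt samples had been hybridized to Clariom S arrays. The submitters' processing notes name RMA (background correction, normalization between arrays, summary of probes) and the Transcriptome Analysis Console, without versions. The authors deposited the resulting log2 levels. No build or annotation is named (not given in the sources used here). Of 28846 rows, 5222 negative and 1418 other control probe sets were left out, and 22206 gene probe sets were tested with no filter on level (19572 with 1 gene symbol, 0 with several, 2634 unnamed here). Where a gene had several probe sets, the brightest was used.

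Groups were compared by moderated linear models (limma 3.58.1 under R 4.3.3, default settings, 2-sided), all 6 arrays in 1 fit with no covariate. Thresholds were those of the study, a fold change of 2.5 and p of 0.05, with Benjamini-Hochberg adjustment over all probe sets. The code was tested on simulated data. The number of arrays limits the precision. Alternatives were other moderation, array weights, 2 normalizations, a filter on dim probe sets, the replicate number as a block, the mean over a gene's probe sets, a fold change of 2, and each array left out.

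Named were the 8 genes, in each further list the genes past the thresholds or else up to 3 with the smallest p that exceeded background on at least 1 array, and the 8 genes most correlated with the mean level. The genes and lists were chosen with earlier results of these data known. Promoter sequences come from RefSeq (GRCm38.p6), which matched 7 of the 9 genes.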

Additional observations from a re-analysis of the deposited data

How the results depend on the processing

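Of all gene probe sets, 222 passed the study's thresholds in the full set of arrays (144 higher and 78 lower), 35 without empirical Bayes, 800 with array weights, 348 with the replicate number as a block, 518 at a fold change of 2, and 43 (without Wt replicate 2) to 1337 (without Pax8 +/- replicate 1) when 1 array was left out. Of the 8 genes, 0 passed with all arrays, 2 with array weights, and 0 to 5 when 1 array was left out (5 without Pax8 +/- replicate 1 and 1 without Wt replicate 3), with the cause not tested. Their median log2 difference of -0.71 ran from -1.30 to -0.32 over the 6 leave-outs and was -0.85 with array weights. Leaving out 1 array, Krt19 ran from -1.06 to 0.35, with 0.35 without Wt replicate 2 and 0.087 without Pax8 +/- replicate 2, and Sox9 from -1.51 to 0.036, with 0.036 without Pax8 +/- replicate 3. With ordinary variances, a robust intensity trend, quantile normalization, scaling to 1 median, the filter on dim probe sets, the block and a fold change of 2, 0 of the 8 genes passed and none changed sign. The filter left out Cftr. As each of the 8 genes had 1 probe set, the mean over probe sets gave the same values. The labels do not say that a replicate number pairs samples, and deviations of arrays with the same number correlated at 0.00, -0.42 and 0.14. The replicate block left the log2 differences as they were and gave Krt8 and Krt18 an adjusted p = 0.840 in limma. Signal over background limits Sox9 and Cftr.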
